A study of Mus musculus with 6 samples.

Results

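The genes described here are the transcription factors of the MYC and MAX network in MLL-AF9 leukemia cells. They were chosen by symbol as Myc, Mycn, Max, Mlx, Mxd1, Mxd3, Mxd4, Mxi1, Mnt and Mga, which are 10 of the 26082 different names in the expression table, and each stood on a line of its own. RNA-Seq was performed on 6 samples of leukemia cells from mouse bone marrow (strain C57BL/6J), 3 in each of the 2 groups. In both groups the cells carried the MLL-AF9 fusion oncogene, introduced with a retrovirus into c-Kit+ bone marrow progenitors, and in the study's model such cells were passed through several rounds of transplantation. The vehicle group came from leukemic mice that received vehicle by mouth, and the DS-5272 group from leukemic mice that received DS-5272, which blocks the binding of MDM2 to p53, at 80 mg/kg by mouth. Cells were taken 24 h later in both groups. The viral vectors of the study include one that also expresses GFP, and its methods describe sorting of bone marrow cells, but neither is tied to these samples in the sources used here. The age of the mice, the p53 genotype of these cells, the gate by which they were separated from host cells, and whether each replicate came from a mouse of its own or from a single leukemia are not given in the sources used here. The p-values therefore measure the spread between these samples, which may be technical.

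MYC and MYCN are activators that bind DNA only as dimers with MAX, at E-box sequences near genes for ribosome production, nucleotide synthesis and cell growth. The MXD proteins (MXD1, MXI1, MXD3 and MXD4) and MNT compete for MAX and for the same sites, where they recruit SIN3 and histone deacetylases and repress transcription. MLX is the partner of the MONDO proteins and of some MXD proteins and MNT, and MGA is a large MAX partner that sits in a Polycomb complex. MYC is known to be high in dividing progenitors and MXD1 to rise when myeloid cells mature. In MLL-AF9 leukemia MYC sustains self-renewal.

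Expression is given in FPKM, fragment numbers scaled to transcript length and to the mapped fragments of each library, so that levels can be compared between genes. The number of fragments behind each value is not part of the table. The depth relative to vehicle replicate 1, estimated from low values, was between 0.811 and 0.885 in vehicle replicates 2 and 3 and between 0.541 and 0.746 in the DS-5272 samples. All values of a sample added up to 445316 to 501241 FPKM with vehicle and to 499229 to 661184 FPKM with DS-5272. Summed FPKM below are not rescaled for this. Of the 11130 genes whose mean reached 1 FPKM, 46.3% passed an adjusted p of 0.05 from limma, 24.2% upward and 22.0% downward with DS-5272. The leukemia factor Meis1 was at 66.1 to 80.5 FPKM with vehicle and 69.2 to 109.9 FPKM with DS-5272. T and NK cell markers summed to 1.65 to 2.64 FPKM with vehicle and to 3.01 to 6.96 FPKM with DS-5272. The sum was higher in every DS-5272 sample and highest in replicate 1, but that top place rests on Cd4 alone. Cd4 reached 3.28 FPKM in that sample and stayed at or below 0.314 FPKM in every other. Of the 12 markers 1 was tested, and it did not pass. Summed macrophage markers were higher in the DS-5272 samples (201.6 to 472.5 FPKM) than in the vehicle samples (74.1 to 134.8 FPKM). Much of these sums came from Vcam1 (36.6 to 82.8 FPKM with vehicle, 74.8 to 142.9 FPKM with DS-5272) and Adgre1, listed as Emr1 (16.7 to 23.3 and 59.8 to 116.1 FPKM). By mass cytometry the study reports upregulation of VCAM-1 in the c-Kit+ population after DS-5272. Of the 12 markers 10 were above the filter, and 4 of these passed the threshold upward. The highest sum was in DS-5272 replicate 1. Summed erythroid markers also reached their highest level there. By replicate number the DS-5272 sums were 146.7, 27.46 and 12.75 FPKM, each above the vehicle range of 2.53 to 4.70 FPKM. Of the 3 tested erythroid markers, 2 passed the threshold upward, but 0 did without vehicle replicate 2 and 1 without vehicle replicate 3. The marker lists of leukemia cells, B cells and stromal or endothelial cells had 9, 1 and 2 tested genes. Of the leukemia cell markers 6 fell, among them Mpo (−5.07), Flt3 (−3.81) and Elane (−2.54 in log2 fold change), and Ptprc rose (1.18), with a median of −0.94. The B cell marker did not pass, with sums of 4.59 to 5.40 FPKM for vehicle and 3.58 to 4.58 FPKM for DS-5272, and of the stromal or endothelial markers Pecam1 rose (1.19, but not called without vehicle replicate 2 or 3 or DS-5272 replicate 1, limma adjusted p = 0.0844, 0.0763 and 0.0592, nor when low genes were kept or samples rescaled to a common total, 0.0508 and 0.0980), with sums of 29.1 to 60.1 and 73.4 to 112.3 FPKM. Pecam1 alone stood at 26.4 to 58.8 FPKM with vehicle and 68.3 to 109.1 FPKM with DS-5272, and so made up most of the stromal or endothelial sums. Col1a1, the other tested marker of that list, was at 0.94 to 2.43 and 2.18 to 5.51 FPKM and did not pass. Cdh5 and Kdr reached at most 0.0758 and 0.0274 FPKM in any sample. The part of these cell types in these results was not tested. The 6 network genes that passed the threshold also passed it, in the same direction, without DS-5272 replicate 1. Leaving that sample out does not remove the marker difference. In that fit 4 of 7 tested macrophage markers (median 1.74) and 2 of 3 tested erythroid markers (median 2.34) were still called higher.

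The E-box sequence that MYC and MAX dimers prefer is CACGTG. Of the 9 members with a promoter in the RefSeq table of GRCm38.p6, Max, Mlx, Mxd4 and Mnt held this sequence once in the 300 bases from 250 before to 50 after the start site, and the other members held none. Counted by promoter, it was found in 36.4% of the 11 promoters of the members, in 7.15% of all 32851 promoters and in 10.4% of those of tested genes. Mxi1 has 3 promoters in the table, and Myc has no entry. The E-box began 3 bases before the start site in Max, 40 in Mlx, 123 in Mnt and 219 in Mxd4. The promoters of these 4 members are shown because they hold the motif of the dimers that the network forms, with the E-box in capitals and each read 5′ to 3′ along the gene (Max chr12:76962199-76962498, minus strand, Mlx chr11:101087040-101087339, plus strand, Mxd4 chr5:34187661-34187960, minus strand, Mnt chr11:74830674-74830973, plus strand). The sequence reads the same on both strands, so each match is on both. A match describes the letters and is not evidence of binding.
Max: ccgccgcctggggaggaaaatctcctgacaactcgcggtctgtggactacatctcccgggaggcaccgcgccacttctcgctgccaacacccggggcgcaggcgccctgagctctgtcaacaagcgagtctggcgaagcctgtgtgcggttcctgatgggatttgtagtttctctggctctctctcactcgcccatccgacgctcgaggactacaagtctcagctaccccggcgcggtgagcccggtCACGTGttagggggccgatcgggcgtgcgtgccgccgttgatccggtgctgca
Mlx: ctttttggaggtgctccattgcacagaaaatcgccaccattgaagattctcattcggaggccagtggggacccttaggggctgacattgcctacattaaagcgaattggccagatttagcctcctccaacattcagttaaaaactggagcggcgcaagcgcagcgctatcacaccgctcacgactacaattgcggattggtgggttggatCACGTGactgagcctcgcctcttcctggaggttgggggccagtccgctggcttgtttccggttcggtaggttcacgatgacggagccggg
Mxd4: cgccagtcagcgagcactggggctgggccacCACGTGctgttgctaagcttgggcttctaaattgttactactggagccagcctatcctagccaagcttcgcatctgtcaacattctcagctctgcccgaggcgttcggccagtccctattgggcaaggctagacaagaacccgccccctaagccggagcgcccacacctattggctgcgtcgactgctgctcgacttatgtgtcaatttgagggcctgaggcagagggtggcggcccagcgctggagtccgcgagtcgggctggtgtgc
Mnt: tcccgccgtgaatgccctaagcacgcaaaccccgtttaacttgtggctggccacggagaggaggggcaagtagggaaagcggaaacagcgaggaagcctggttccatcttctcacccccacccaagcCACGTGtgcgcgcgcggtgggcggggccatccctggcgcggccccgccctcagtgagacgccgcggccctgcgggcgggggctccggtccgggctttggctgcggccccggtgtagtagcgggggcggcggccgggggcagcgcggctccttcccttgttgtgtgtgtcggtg

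Of the 10 members, 9 reached the expression filter and 6 passed the threshold, against 46.3% of all genes tested. Max, Mxd1, Mxd4 and Mnt rose in DS-5272-treated cells and Myc and Mxd3 fell. For 8 of the 9 tested members the vehicle and DS-5272 values did not overlap, which was also the case for 61.8% of all genes tested. The median log2 fold change was 0.25 over the 9 members and 0.04 over all tested genes. In RNA from a whole sample, a lower share of cells that express a gene and less RNA of it per cell cannot be told apart.

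**Figure D1:**
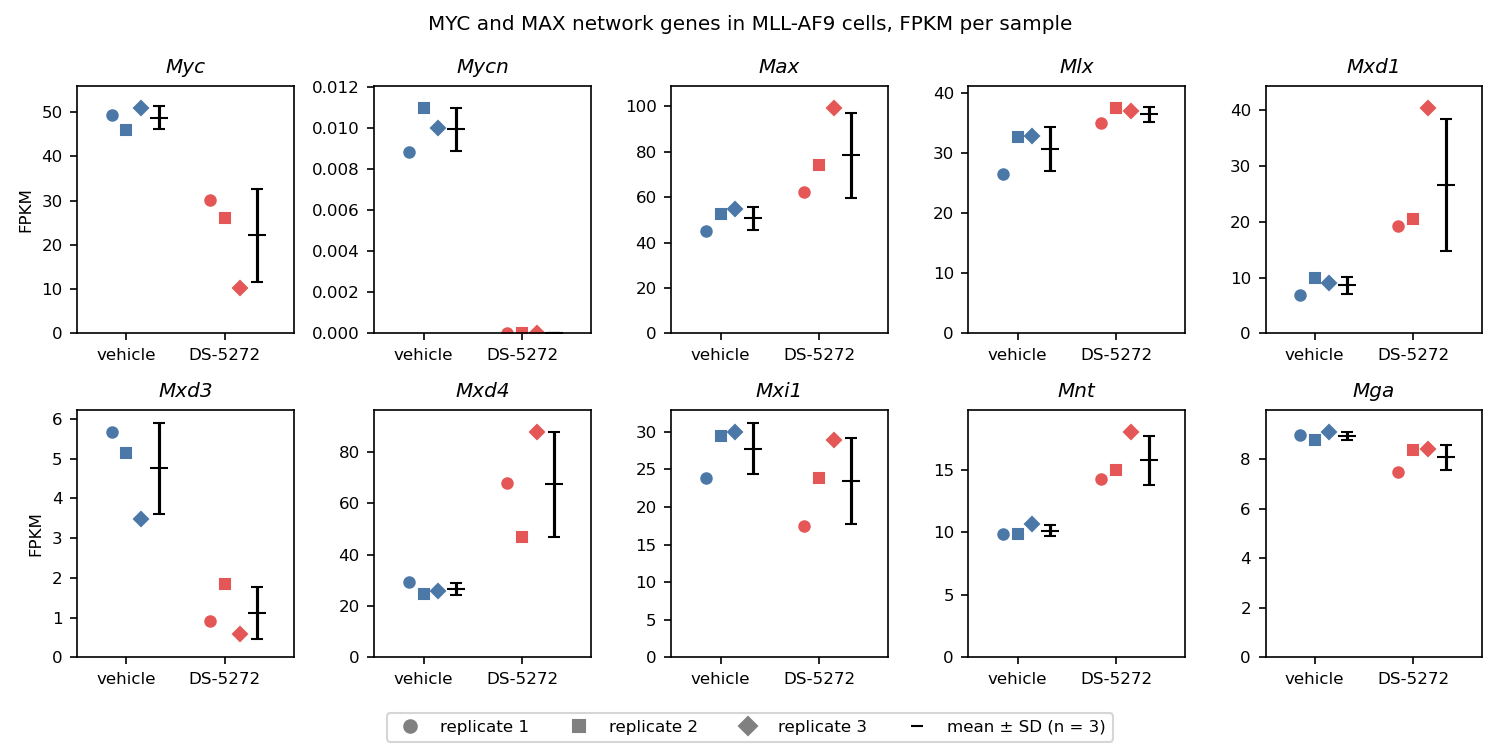
FPKM of each of the 10 genes in each sample (blue, vehicle, and red, DS-5272, with a marker shape for each replicate number), and the mean ± SD of each group in black (n = 3). Myc, Mxd3 and, by a small margin, Mga lay lower in all 3 DS-5272 samples, and Max, Mxd1, Mxd4, Mnt and Mlx lay higher. The groups of Mxi1 overlapped, and Mycn was close to 0 in all samples.

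With vehicle, Myc stood at 49.5, 45.9 and 50.8 FPKM in replicates 1, 2 and 3, and with DS-5272 it stood at 30.2, 26.1 and 10.3 FPKM. The vehicle samples were close to each other, and DS-5272 replicate 3 was the lowest of all samples. The mean was 2.19-fold lower with DS-5272 (log2 fold change −1.23 ± 0.36 SE, limma adjusted p = 0.0312), and the lowest vehicle value was 1.52 times the highest DS-5272 value. Leaving out DS-5272 replicate 3 gave a log2 fold change of −0.77 (limma adjusted p = 0.00501). The call was lost without vehicle replicate 1, 2 or 3 (limma adjusted p = 0.0787, 0.0768 and 0.0821) or when low genes were kept (0.0627), and its adjusted p over all alternatives ran from 0.00501 to 0.0821 in limma. Myc lies on chromosome 15 (61985391 to 61990374, plus strand, GRCm38), and no exon of another gene overlaps its exons in GENCODE M21.

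Mycn, the MYC family member best known from neural tumors, gave 0.00886, 0.0110 and 0.0100 FPKM in the vehicle samples and was listed at 0 in the 3 DS-5272 samples. Multiplied by the relative depth, the vehicle values were 0.00886, 0.00890 and 0.00887, and so nearly equal. Mycn was below the filter and was not tested. Mycl, the third family member, was at 0.00731 to 0.0323 FPKM with vehicle and listed at 0 with DS-5272, and Myc was the MYC family gene above the filter.

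Among the antagonists, Mxd1, Mxd4 and Mnt rose. Mxd1, which is known as a repressor of growth genes in maturing myeloid cells, was at 6.89, 9.89 and 9.11 FPKM in the vehicle samples and at 19.2, 20.5 and 40.3 FPKM in the DS-5272 samples. Every DS-5272 sample lay at least 1.94 times above the highest vehicle sample, and the mean was 3.09-fold higher (log2 fold change 1.45 ± 0.29 SE, limma adjusted p = 0.00877). Mxd1 lies on chromosome 6 (86647042 to 86669161, minus strand, GRCm38) without overlapping exons of other genes.

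Mxd4, a repressor of the same family that is often found in resting cells, was at 29.2, 24.8 and 25.9 FPKM with vehicle and at 68.0, 46.8 and 87.5 FPKM with DS-5272. DS-5272 replicate 2 had the smallest rise and replicate 3 the largest, and the mean was 2.53-fold higher (log2 fold change 1.27 ± 0.22 SE, limma adjusted p = 0.00610). Mnt, the antagonist with the broadest expression across tissues, went from 9.87, 9.89 and 10.7 FPKM to 14.2, 15.0 and 18.0 FPKM. Its rise was smaller, at 1.55-fold (log2 fold change 0.58 ± 0.11 SE, limma adjusted p = 0.00863), with no overlap between the groups. The rises of Mxd1, Mxd4 and Mnt kept their call under each of their 14 alternatives, with the highest adjusted p at 0.0317, 0.0303 and 0.0407 from limma. Under rescaling to a common total their log2 fold changes were 1.21, 1.01 and 0.33. An antisense transcript overlaps exons of Mxd4, and whether strand was used in counting is not given in the sources used here.

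Mxd3 moved opposite to the other MXD genes that passed the threshold. MXD3 differs from its relatives in that it is known to be expressed in dividing cells. It was at 5.66, 5.13 and 3.47 FPKM with vehicle and at 0.910, 1.85 and 0.595 FPKM with DS-5272, a fall of 4.25-fold in the mean (log2 fold change −1.46 ± 0.26 SE, limma adjusted p = 0.00620). The fold is understated on the log2(FPKM + 1) scale, and with 0.1 in place of 1 FPKM the log2 fold change was −2.10. The fall kept its call in each of its 13 alternatives (highest limma adjusted p = 0.0310). Among the DS-5272 samples Mxd3 was highest in replicate 2, where the summed level of 12 proliferation genes was also highest (484.3 FPKM, against 217.6 and 145.1 FPKM in replicates 1 and 3 and 905.7 to 984.3 FPKM with vehicle). All 12 of these genes were tested and fell, where 22.0% of all genes did. Without vehicle replicate 2, 7 of them fell, and 1404 of all 11148 genes tested in that fit. The part of proliferation in the fall of Mxd3 was not tested. Exons of Mxd3 (chromosome 13, 55325168 to 55329823) overlap those of Prelid1 on the opposite strand.

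Mxi1, the MXD protein first described as a MAX interactor, did not pass the threshold. It was at 23.8, 29.5 and 29.9 FPKM with vehicle and at 17.5, 23.9 and 28.9 FPKM with DS-5272, and the groups overlapped (log2 fold change −0.255, 95% interval −0.71 to 0.20, limma adjusted p = 0.304). Within both groups replicate 1 was the lowest. Mga was nearly level, at 8.99, 8.77 and 9.09 FPKM with vehicle and 7.50, 8.37 and 8.40 FPKM with DS-5272 (log2 fold change −0.13, 95% interval −0.36 to 0.10, limma adjusted p = 0.287). Its groups did not overlap, but the interval includes no change and excludes a rise above 0.10. After rescaling to a common total both genes passed the threshold downward, Mxi1 at −0.51 (limma adjusted p = 0.0141) and Mga at −0.37 (limma adjusted p = 0.0417). That rescaling moved the median of all genes from 0.04 to −0.20. Exons of Mxi1 (chromosome 19, 53310518 to 53375810) overlap those of Gm10197 on the opposite strand.

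The common partner Max was at 44.9, 52.4 and 54.6 FPKM with vehicle and at 62.1, 73.9 and 99.0 FPKM with DS-5272. Every DS-5272 sample lay above every vehicle sample, and the mean was 1.55-fold higher (log2 fold change 0.60 ± 0.18 SE, limma adjusted p = 0.0340). The call was lost without vehicle replicate 1, 2 or 3 (limma adjusted p = 0.104, 0.0847 and 0.0682), without DS-5272 replicate 2 (0.0665) or when low genes were kept (0.0583), and its adjusted p over all alternatives ran from 0.00754 to 0.104. Under rescaling to a common total the log2 fold change of Max was 0.34 (limma adjusted p = 0.0363). Mlx was at 26.5, 32.7 and 32.9 FPKM with vehicle and at 35.0, 37.4 and 36.9 FPKM with DS-5272 (log2 fold change 0.25, 95% interval −0.02 to 0.52, limma adjusted p = 0.113). Its groups did not overlap, and the difference was −0.012 after rescaling to a common total. Exons of Mlx overlap those of Psmc3ip on the opposite strand.

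**Figure D2:**
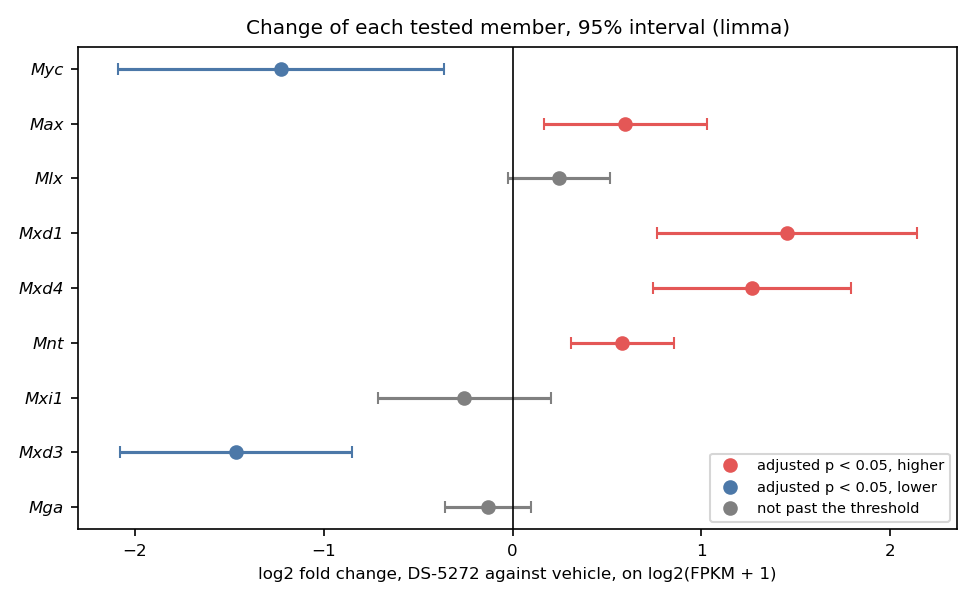
Log2 fold change of the 9 tested members between DS-5272 and vehicle on the log2(FPKM + 1) scale, with 95% intervals from limma (3 samples per group), colored by whether and in which direction the adjusted p passed 0.05. Mxd1, Mxd4, Mnt and Max lay to the right of 0, Myc and Mxd3 to the left, and the intervals of Mlx, Mxi1 and Mga include 0.

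The order of the levels changed with the treatment. With vehicle, Max and Myc came first, at 50.6 ± 5.06 and 48.7 ± 2.56 FPKM (SD, n = 3), and their values overlapped. Mlx, Mxi1 and Mxd4 followed at 30.7 ± 3.67, 27.7 ± 3.40 and 26.6 ± 2.27 FPKM (SD, n = 3) without a gap between neighbors, then Mnt at 10.2 ± 0.47, Mga at 8.95 ± 0.16, Mxd1 at 8.63 ± 1.56 and Mxd3 at 4.76 ± 1.14 FPKM (SD, n = 3), of which Mga and Mxd1 overlapped. With DS-5272, Max and Mxd4 came first, at 78.4 ± 18.9 and 67.4 ± 20.4 FPKM (SD, n = 3), and overlapped. Myc stood at 22.2 ± 10.5 FPKM (SD, n = 3) and overlapped with its neighbors Mxi1 (23.4 ± 5.70 FPKM) and Mnt (15.8 ± 1.98 FPKM). Mxd1 stood at 26.7 ± 11.8 FPKM (SD, n = 3) and overlapped with Mlx (36.5 ± 1.26 FPKM) and Mxi1. Myc was above 83.2% of the tested genes with vehicle and above 62.1% with DS-5272, while Mxd1 went from 36.7% to 67.0% and Mxd4 from 68.9% to 86.3%.

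Activators and antagonists were then set against each other as sums of FPKM, with Myc and Mycn on one side and Mxd1, Mxd3, Mxd4, Mxi1 and Mnt on the other. No p-value is given, since the members were chosen with results of these data known. The antagonist sum was 75.4, 79.2 and 79.0 FPKM with vehicle and 119.8, 108.0 and 175.3 FPKM with DS-5272. It was 1.52, 1.73 and 1.55 times the activator sum in vehicle replicates 1, 2 and 3, and with DS-5272 it was 3.97, 4.13 and 17.0 times that sum, with replicate 3 far above the others. The log2 ratio of activators to antagonists went from −0.68 ± 0.10 to −2.71 ± 1.19 (SD, n = 3). Vehicle values (−0.79 to −0.61) all lay above the DS-5272 values (−4.08 to −1.99), so any pairing of the samples moves downward. Same-numbered samples differed by −1.38, −1.26 and −3.45. The difference of the group means was −2.03, and −1.34 without DS-5272 replicate 3. These are transcript levels, and protein was not measured here.

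The antagonist sum also changed in composition. Mxi1 made up 35.5% ± 3.45 of it with vehicle and 17.7% ± 3.92 with DS-5272 (SD, n = 3). Mxd4 made up 38.7%, 31.3% and 32.7% with vehicle and 56.8%, 43.3% and 49.9% with DS-5272. The share of Mxd1 went from 11.1% ± 1.72 to 19.3% ± 3.51 (SD, n = 3). Among all MAX partners, with Mga included, Myc held 37.0%, 34.3% and 36.6% in the vehicle samples and 19.2%, 18.3% and 5.32% in the DS-5272 samples. Max was below the sum of its partners in every sample, at 0.336 to 0.393 times that sum with vehicle and 0.394, 0.519 and 0.510 times with DS-5272.

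**Figure D3:**
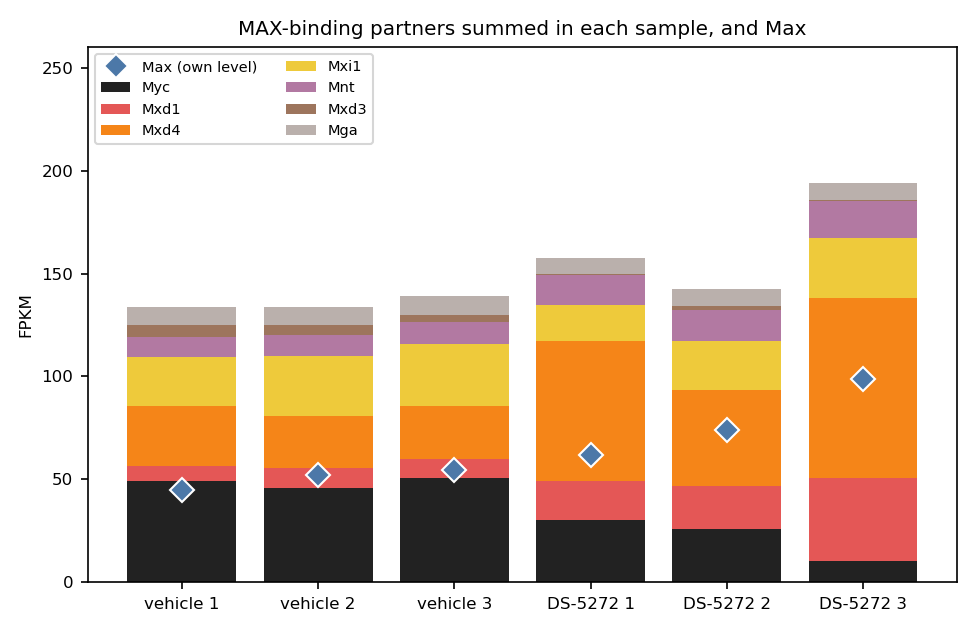
FPKM of the MAX partners stacked for each sample, with Myc at the bottom, and the FPKM of Max itself as a diamond. Myc fills the lowest 45.9 to 50.8 FPKM of each vehicle bar and 10.3 to 30.2 FPKM of each DS-5272 bar, where Mxd4 is the largest segment.

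DS-5272 replicate 3 stood furthest from the vehicle samples for Myc, Max, Mxd1, Mxd3, Mxd4 and Mnt. The p53 target genes Cdkn1a, an inhibitor of cyclin-dependent kinases, and Mdm2, the negative regulator of p53, were also highest in that sample. Cdkn1a ranged from 14.8 to 28.1 FPKM with vehicle and stood at 32.3, 117.0 and 485.2 FPKM in the samples given DS-5272 (limma adjusted p = 0.0611, 0.0137 with the replicate block). Mdm2 was at 42.6, 78.8 and 209.6 FPKM with DS-5272 and at 27.1 to 40.0 FPKM with vehicle (limma adjusted p = 0.0733, 0.0148 with the replicate block). Without DS-5272 replicate 1 both passed the threshold (limma adjusted p = 0.0106 and 0.0166). In the other 12 of 14 alternatives neither was called, with limma adjusted p of up to 0.154 for Cdkn1a and 0.178 for Mdm2. The summed level of 15 myeloid maturation genes was 1480, 3009 and 3688 FPKM with vehicle and 6543, 14050 and 22830 FPKM with DS-5272. Of these genes, all of which were tested, 11 rose, where 24.2% of all genes did, led by Mmp9 (4.32), S100a9 (4.08) and Fpr1 (3.90 in log2 fold change). S100a9 was not called without DS-5272 replicate 2 or 3 (limma adjusted p = 0.0612 and 0.0658). The part of maturation in the changes of the network was not tested.

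Most of the tested genes that MYC is known to activate through E-boxes fell. Of 36 such genes, 33 were tested and 28 of these passed the threshold downward, where 22.0% of all genes did, with a median log2 fold change of −0.95 against 0.04 over all genes tested. Without vehicle replicate 1, 2 or 3 the number that fell was 19, 15 and 17, with medians of −0.99, −0.93 and −0.98, and it was 28 without DS-5272 replicate 1 or 3. The largest falls were those of Shmt2, a mitochondrial enzyme of serine and glycine metabolism (−2.21 ± 0.40 SE, limma adjusted p = 0.00664), Apex1, a DNA repair endonuclease (−1.64 ± 0.32 SE, limma adjusted p = 0.00865), and Cad, which starts pyrimidine synthesis (−1.51 ± 0.26 SE, limma adjusted p = 0.00612). The 33 tested genes include nucleolar factors such as Ncl and Npm1 (log2 fold changes −1.29 and −1.20). Odc1, the first enzyme of polyamine synthesis, was named after its values were seen. It was at 113.2, 212.3 and 267.6 FPKM with vehicle and 94.7, 296.0 and 297.8 FPKM with DS-5272, with overlapping groups (log2 fold change 0.13, limma adjusted p = 0.853). CACGTG stood in 21.6% of the 37 promoters of 31 genes of this list, against 10.4% over tested genes.

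Of 9 genes that MYC represses with MIZ1, all of which were tested, 3 rose and 1 fell, a share near the 46.3% called among all genes. Their median was 0.86, and 0.45 without vehicle replicate 1. Cdkn1b, which encodes the cell cycle inhibitor p27 (1.14, limma adjusted p = 0.0163), Ndrg1 (0.94, limma adjusted p = 0.00247) and Cebpd, a myeloid transcription factor (0.86, limma adjusted p = 0.00393), rose. Cdkn1c, which encodes the inhibitor p57, fell by 2.13 on the log2 scale (limma adjusted p = 0.00490), and the other 5 did not pass. With the replicate block 5 genes of the list rose, Cdkn1a among them (limma adjusted p = 0.0137). Cdkn1b was not called without vehicle replicate 1 (limma adjusted p = 0.0539). Cdkn1a and Gadd45a of this list are also p53 target genes.

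On the MLX side, Mlxip, which encodes MONDOA, was at 12.6, 10.3 and 9.46 FPKM with vehicle and 19.5, 13.2 and 18.2 FPKM with DS-5272 (log2 fold change 0.60 ± 0.17 SE, limma adjusted p = 0.0291). Its call was lost without vehicle replicate 2 or 3 (limma adjusted p = 0.0933 and 0.0991), without DS-5272 replicate 1 or 3 (0.0681 and 0.0753), when low genes were kept (0.0536), with upper quartile rescaling (0.0513) and once samples were rescaled to a common total (0.35, limma adjusted p = 0.238). Of 3 tested MONDOA and MLX target genes, Txnip, a brake on glucose uptake, rose from 57.3, 60.5 and 65.9 FPKM to 77.3, 110.0 and 163.6 FPKM (0.86, limma adjusted p = 0.0320), Klf10 rose by 1.40 (limma adjusted p = 0.0264) and Arrdc4 did not pass. The call of Txnip was lost without vehicle replicate 1, 2 or 3 or DS-5272 replicate 2 (limma adjusted p = 0.0890, 0.0901, 0.0684 and 0.0723) or when low genes were kept (0.0612). That of Klf10 was lost without vehicle replicate 1 or 2 or DS-5272 replicate 2 or 3 (limma adjusted p = 0.0779, 0.0857, 0.0774 and 0.0694) or when low genes were kept (0.0551).

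Of 13 tested MYC coactivators and partners, 4 fell and 2 rose, with a median of −0.04, a share of called genes near the 46.3% of all tested genes. Once samples were rescaled to a common total, 7 fell, the median was −0.30 and neither rise passed. The rises were also lost without vehicle replicate 2 or 3 and when low genes were kept. Actl6a, Ruvbl1 and Ruvbl2, which are subunits of chromatin remodeling and histone acetylation complexes, fell (log2 fold changes −1.04, −1.04 and −1.02, limma adjusted p = 0.00319, 0.0116 and 0.00637), and the acetyltransferase gene Ep300 rose by 0.49 (limma adjusted p = 0.0328). The call of Ep300 was lost without vehicle replicate 1, 2 or 3 (limma adjusted p = 0.0505, 0.114 and 0.0984), when low genes were kept (0.0524) and once samples were rescaled to a common total (0.24, limma adjusted p = 0.219). Of 18 tested subunits of the SIN3 and NCOR corepressors, 7 fell and 2 rose, against 22.0% and 24.2% of all genes. The share called in either direction is also near the 46.3% called among all genes. The median of these 18 subunits was −0.16, and it was −0.29 without vehicle replicate 1 and −0.07 without DS-5272 replicate 1. The number that fell was 3 without vehicle replicate 1, 2 or 3. The histone chaperones Rbbp7 and Rbbp4 and the deacetylase Hdac2 fell (log2 fold changes −1.28, −0.75 and −0.72, limma adjusted p of at most 0.00767), and Sap30 rose by 1.06 (limma adjusted p = 0.00465). In the MGA complex, 5 of 9 tested subunits fell and 1 rose, against 22.0% and 24.2% of all genes, with a median of −0.73, while Mga itself did not pass. Cbx3, Tfdp2 and E2f6 fell (log2 fold changes −1.02, −0.945 and −0.83, limma adjusted p = 0.00577, 0.00397 and 0.0188), and Rybp rose by 0.78 (limma adjusted p = 0.0140). E2f6 was not called without vehicle replicate 1 or 3 (limma adjusted p = 0.0622 and 0.0539), nor was Rybp without vehicle replicate 2 (0.0508).

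Among 17 tested genes that control the turnover of MYC protein, 7 fell and 1 rose, against 22.0% and 24.2% of all genes. Their median was −0.17, and the share called in either direction was near the 46.3% of all genes. Without vehicle replicate 1 or 2, 4 fell, and with the replicate block 8 fell and 3 rose. Cip2a, listed as C330027C09Rik, which protects MYC from dephosphorylation, had the largest fall (log2 fold change −2.09, limma adjusted p = 0.00469), followed by the ubiquitin ligase subunit Skp2 and the mitotic kinase Aurka, with log2 fold changes of −1.54 and −1.35 (limma adjusted p = 0.0105 and 0.0117). Fbxo28 rose by 0.55 (limma adjusted p = 0.0114), a call that was lost without vehicle replicate 3 (limma adjusted p = 0.0514) and once samples were rescaled to a common total (0.31, limma adjusted p = 0.0743). Fbxw7, the ligase subunit that marks MYC for degradation, was at 3.22 to 3.68 FPKM with vehicle and 4.21 to 5.84 FPKM with DS-5272 (log2 fold change 0.40, limma adjusted p = 0.0513). Fbxw7 was named after its values were seen. Of 9 other E-box factors outside the network, 4 rose and 2 fell, against 24.2% and 22.0% of all genes. The rises were led by Tfe3, Mitf and Tfeb (1.26, 1.21 and 1.04), which are known for lysosomal genes, and the falls were those of Tfap4 (−1.50), a gene that MYC is known to activate, and Srebf2 (−1.23), the regulator of cholesterol synthesis, with limma adjusted p of at most 0.00556 for these 5 genes.

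**Figure D4:**
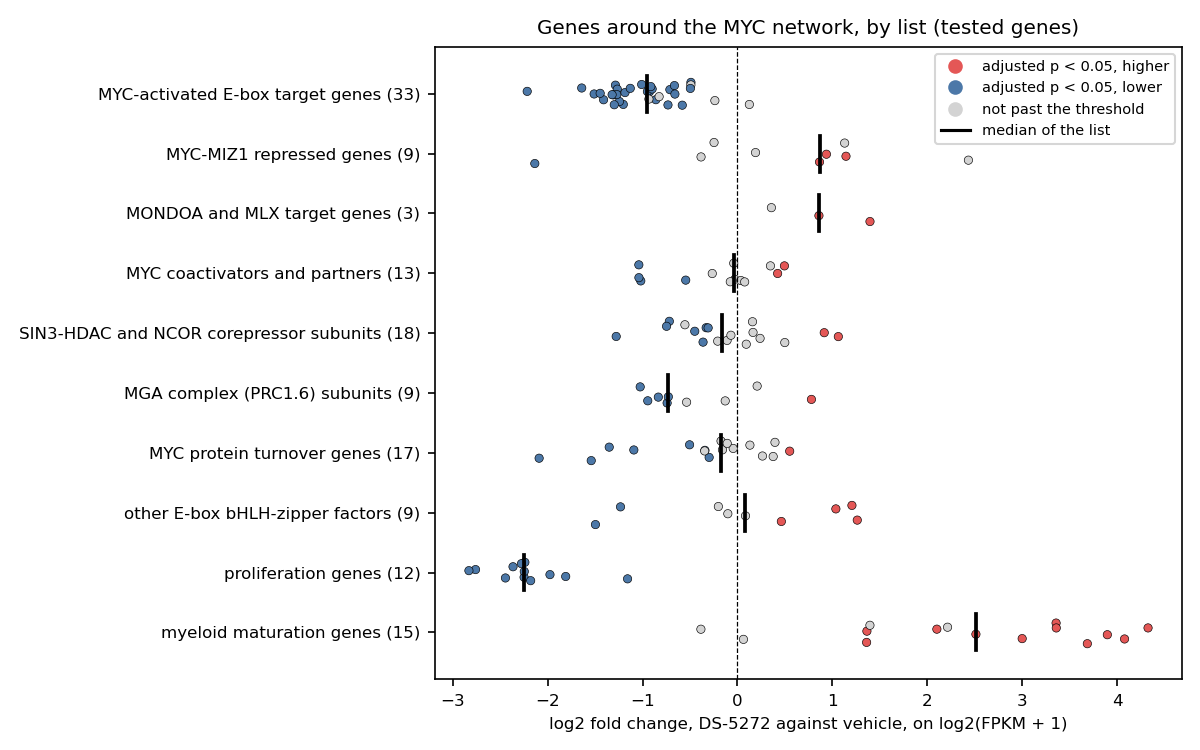
Log2 fold change between DS-5272 and vehicle of every tested gene in 10 lists around the network (number tested in parentheses), colored by call, with the median of each list as a black bar. The E-box targets sit mostly left of 0 with a median of −0.95, the cofactor lists lie on both sides, and all 12 proliferation genes lie at −1.16 or lower.

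The genes whose levels followed those of Myc most closely over the 6 samples were Acy1, Hspd1, Slc16a1, Grwd1 and Pus7, by the root mean square difference of mean-centered log2(FPKM + 1), which was between 0.11 and 0.13. Hspd1, a mitochondrial chaperone gene that is also in the E-box target list, was at 157.7, 149.4 and 156.0 FPKM with vehicle and 86.3, 88.7 and 39.7 FPKM with DS-5272. Slc16a1, which encodes a lactate transporter, was at 10.8, 9.21 and 9.27 FPKM and then at 5.51, 4.52 and 1.79 FPKM. For Mxd1 the closest were Adamtsl4, Chst15, Rarg, Carhsp1 and Jhdm1d, with differences between 0.087 and 0.115. Rarg, a retinoic acid receptor gene, was at 5.74, 7.09 and 6.15 FPKM with vehicle and 14.6, 16.1 and 27.0 FPKM with DS-5272. The likeness includes the difference between the groups, and DS-5272 replicate 3 was the lowest sample for Myc and the highest for Mxd1.

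**Figure D5:**
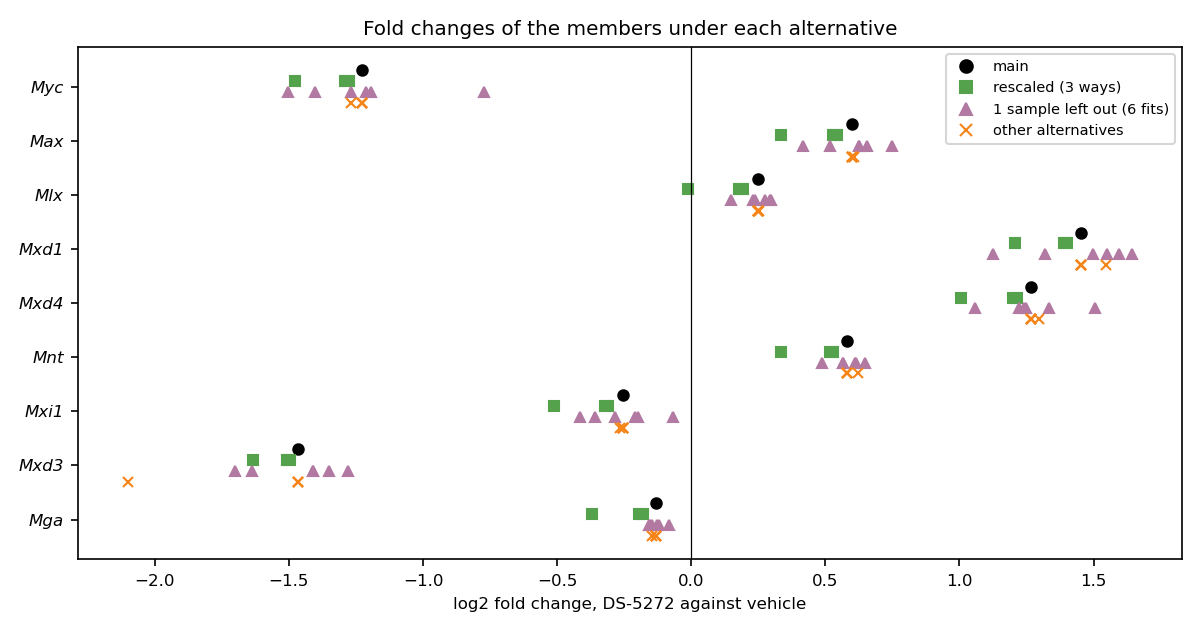
Log2 fold change of each tested member as reported (black), after rescaling the samples in 3 ways (green), with 1 sample left out (purple) and under the other alternatives (orange). Myc ranged from −1.50 to −0.77 and Mxd1 from 1.13 to 1.64, and only Mlx crossed 0 (−0.012 after rescaling to a common total).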

How the data were processed

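RNA-Seq was performed on MLL-AF9 leukemia cells in 6 samples, 3 given vehicle and 3 given DS-5272. The authors made strand-specific libraries, trimmed the paired-end reads (cutadapt 1.8.1), mapped these on GRCm38 transcripts (TopHat 2.1.1) and derived a level for each gene (Cufflinks 2.2.1). The deposited FPKM values are scaled to transcript length and mapped fragments and are not counts, so no count model was used. Lines that carry the same name (435 names) were summed, and 433 lines that join several genes were given to no list member.

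The groups were compared by limma 3.58.1 in R 4.3.3 (two-sided, lmFit, then eBayes along the trend of variance with mean) on log2(FPKM + 1). A gene was tested if its mean over the samples reached 1 FPKM (11130 genes), with Benjamini-Hochberg adjustment over all of them and a threshold of 0.05. The script was tested on simulated data. No single gene can reach a p below 0.1 in an exact permutation test of groups this small, so none was run. Intervals are 95% intervals of limma and cover the spread between samples. Plots were drawn with matplotlib 3.10.9 and summaries computed with pandas 2.3.3 and numpy 2.4.6, all in Python 3.11.15.

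The members, the 17 gene lists and the motif were chosen with earlier results of these data known. Of the 208 list members, 194 were found by their symbol and 4 by an earlier symbol, while 6 in joined lines and 4 that were not found were left aside. Genes were named by a rule, which took the 10 members, in each list up to 3 called genes with the greatest change toward the side of the list median and 1 called gene on the opposite side, and the 5 nearest profiles of Myc and of Mxd1. Ncl and Npm1 were named after their values were seen, as were Odc1, Fbxw7, Srebf2, Cdkn1a, Gadd45a, Mdm2 and Meis1. The same holds for the markers Cd4, Vcam1, Adgre1, Col1a1, Cdh5 and Kdr. Some genes that the rule selects from the marker lists are not reported. Promoter sequences are from RefSeq and gene positions from GENCODE M21.

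Both groups carry replicate numbers from 1 to 3 in the labels. Same-numbered samples deviated together from their group means, with correlations over genes of 0.66, 0.21 and 0.43 for numbers 1, 2 and 3, each over the limit of 0.1. Of the pairs with different numbers, vehicle 2 with DS-5272 3 gave 0.34 and vehicle 3 with DS-5272 2 gave 0.18, and the other 4 were negative. The positive correlations of differently numbered samples were also over that limit, so it does not establish that the numbers pair the samples. A replicate block was fitted as an alternative. Further alternatives were 0.1 in place of 1 FPKM as pseudocount, keeping all low genes, requiring a mean of 5 FPKM, rescaling (upper quartile, median ratio or total, the last as TPM), eBayes without the trend, and leaving out each sample. Relative depth rests on 717 genes with low values in every sample.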

Additional observations from a re-analysis of the deposited data

How the results depend on the processing

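With 4 members higher and 2 lower as reported, 1 was lower with no filter on low FPKM (where Max and Myc lost their calls), 1 with a mean of at least 5 FPKM (Mxd3 no longer tested) and 4 after rescaling to a common total, which added Mxi1 and Mga and gave Mlx a log2 fold change of −0.012. When 1 sample was left out, 3 to 4 members were higher and 1 to 2 lower. The ratio of activators to antagonists then changed by −2.39 to −1.34 on the log2 scale. The other genes of the pathway were pooled from all lists except the marker, proliferation and maturation lists. With all samples, 112 of them were tested, 16 were higher and 54 lower, against 24.2% and 22.0% of all genes. Leaving out 1 sample gave 9 to 19 of them higher and 33 to 52 lower, and 1654 to 2920 of all genes higher and 1404 to 2446 lower. The lowest of these counts, 9 and 33 in the pathway lists and 1654 and 1404 over all genes, came without vehicle replicate 2. Without vehicle replicate 3 the pathway lists gave 10 higher and 35 lower, and 1489 of all genes were lower. Over all genes, 2697 were higher and 2451 lower as reported, or 52.4% higher, and 1706 were higher and 3564 lower, or 32.4% higher, after rescaling to a common total. With the replicate block 4 members were higher and 2 lower, the block changed the call of no member, and it gave 21 and 59 genes of the pathway and a ratio change of −2.03. Mxd1, Mxd4, Mnt and Mxd3 kept direction and call in every alternative in which they were tested. Depth was lower in the DS-5272 samples, and its effect on single genes was not tested.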
